A study of Mus musculus with 12 samples.

Results

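The unfolded protein response is described here by 10 genes: Hspa5, Hsp90b1, Dnajb9, Sdf2l1, Creld2 and Herpud1, which act in protein folding or clearance in the endoplasmic reticulum (ER), Xbp1, and the stress factors Atf4, Ddit3 and Trib3. They were read by 21 probe sets, all those that the platform annotation gives to exactly 1 of these symbols, out of 45037 probe sets on each array other than the array's own controls. The genes were selected on their intensities, since such genes had stood high on 1 control array, control replicate 2. The height of that array is therefore given as a description, with no test.

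Epithelial cells of the mammary gland came from females of the inbred strain FVB/N. In the p190B group (6 arrays) the mice carried MMTV-rtTA, a doxycycline-dependent transactivator under the mouse mammary tumour virus promoter, and TetO-p190B-IRES-luciferase, from which the transactivator expresses the RhoGAP p190B together with luciferase. In the control group (6 arrays) they carried MMTV-rtTA alone. Doxycycline was in the chow (2 g/kg) of both groups, starting at 5 weeks of age and lasting 7 days, and cells were taken at 6 weeks, so the transactivator and the drug were common to both groups. The labels call the arrays of a group biological replicates and do not say whether an array holds 1 mouse or a pool.

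When unfolded proteins build up in the ER, 3 sensors in its membrane start the response. Ire1 splices the Xbp1 messenger into a form that encodes an active transcription factor, Atf6 is cut in the Golgi to release another, and Perk phosphorylates the initiation factor eIF2, which lowers general translation and favours translation of Atf4. Xbp1 and Atf6 raise ER chaperones and degradation factors, while Atf4 raises amino acid and redox genes together with Ddit3 and Trib3, which are tied to cell death under lasting stress. Secretory epithelia use the response to meet their secretory load. The arrays measured steady RNA levels, and the translation of Atf4 was not read.

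Known binding sites of the branches were looked for in the promoters. In the 250 bases before each annotated start, from RefSeq on GRCm38.p6 (all 10 genes matched), 3 motifs were searched on both strands: the ER stress response element (CCAAT followed by CCACG with 9 bases of any kind between them), its second form (ATTGG followed by CCACG with 1 base between), and the C/EBP-ATF composite site TTGCATCA bound by Atf4. The first was found in Hspa5, Hsp90b1 and Creld2 and in 0.113% of 32851 promoter windows of this length, the second in Herpud1 and in 0.0304%, and the third in Herpud1 and in 0.791%. The other 6 genes held none of these letters in the window. A match is a stretch of letters and was not tested for binding. The 4 promoters with a match are shown, since they include Hspa5, the best known chaperone of the response, and Herpud1, the gene that stood highest on control replicate 2. Capitals mark the motifs, and each sequence runs 5′ to 3′ on the gene's strand.
Hspa5, chr2:34771840-34772089, plus strand: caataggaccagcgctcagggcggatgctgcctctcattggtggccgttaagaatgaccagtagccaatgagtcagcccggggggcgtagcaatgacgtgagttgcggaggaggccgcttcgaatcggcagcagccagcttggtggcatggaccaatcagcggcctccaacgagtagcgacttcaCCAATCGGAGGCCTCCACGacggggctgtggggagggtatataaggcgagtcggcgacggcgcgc
Hsp90b1, chr10:86705445-86705694, minus strand: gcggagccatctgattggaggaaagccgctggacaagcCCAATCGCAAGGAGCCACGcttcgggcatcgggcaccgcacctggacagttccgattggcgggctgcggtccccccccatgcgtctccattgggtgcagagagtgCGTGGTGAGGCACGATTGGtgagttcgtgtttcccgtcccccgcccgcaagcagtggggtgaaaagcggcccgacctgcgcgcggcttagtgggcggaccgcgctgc
Creld2, chr15:88819396-88819645, plus strand: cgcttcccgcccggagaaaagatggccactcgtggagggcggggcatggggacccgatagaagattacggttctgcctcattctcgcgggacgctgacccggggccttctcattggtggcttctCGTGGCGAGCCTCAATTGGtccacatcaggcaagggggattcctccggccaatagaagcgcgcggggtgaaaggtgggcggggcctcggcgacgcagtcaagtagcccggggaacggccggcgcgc
Herpud1, chr8:94386179-94386428, plus strand: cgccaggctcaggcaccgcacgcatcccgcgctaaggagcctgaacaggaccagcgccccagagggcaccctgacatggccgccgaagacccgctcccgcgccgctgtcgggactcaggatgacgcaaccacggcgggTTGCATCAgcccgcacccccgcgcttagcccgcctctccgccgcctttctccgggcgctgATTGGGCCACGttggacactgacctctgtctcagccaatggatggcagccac
In Hspa5 the element ended 47 bases before the start. In Herpud1 the composite site began 112 bases and the second-form element 52 bases before it. Hsp90b1 held the element once on each strand.

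Values are MAS5 intensities on a linear scale, and tests were run on log2(intensity + 16), on which differences of dim genes are understated. Across the 27022 probe sets bright enough to be tested, any 2 arrays had a Pearson r of 0.957 to 0.987. Keratins of the luminal and basal layers were high on every array, with Krt8 at 40415 to 44385 intensity units in p190B and 38760 to 47661 in control, and Krt14 at 9537 to 14454 in p190B and 8342 to 14981 in control. Genes of other cells were high too. The fibroblast gene Col3a1 ran from 40575 to 51409 units in p190B and from 36798 to 47934 in control. The adipocyte gene Fabp4 ran from 41678 to 48756 and from 42977 to 52718 in the same order. Arhgap5, which encodes p190B, was read by 4 probe sets and none passed the test (limma adjusted p from 0.258 to 0.925). Its probe set 1423194_at ran from 1201 to 1635 units in p190B and from 831 to 1319 in control, while 1450896_at ran from 651 to 1064 and from 761 to 1284 in the same order. The brightest, 1450897_at, ran from 3802 to 5828 units in p190B and from 4573 to 5601 in control. A difference in p190B RNA between the groups was therefore not shown by these values. Which part of the messenger each probe set reads was not checked, so a lack of transgene RNA was not shown either.

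None of the 20 tested probe sets of the 10 genes differed between p190B and control cells past a limma adjusted p of 0.05. Over all tested probe sets 10 of 27022 passed (0.037%), 1 higher (0.0037%) and 9 lower in p190B (0.0333%). Of the 20, 3 had an unadjusted p under 0.05 (1 each of Atf4, Hsp90b1 and Dnajb9, all lower in p190B), beside 9.32% of all tested probe sets (4.81% lower in p190B), and 0 had p190B and control arrays that did not overlap, beside 0.877% of all. The remaining probe set, Atf4 1439258_at, lay below the brightness filter, at 5.9 to 88.6 units in p190B and 4.4 to 44.8 in control. The median log2 difference over the 20 was −0.03, beside 0.02 over all tested probe sets, and their median absolute difference was 0.06 beside 0.10. The limma standard errors of the 20 ran from 0.05 to 0.15, beside a median of 0.12 over all. Probe sets of like brightness were not compared, so the smaller absolute difference is not particular to these genes.

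**Figure D1:**
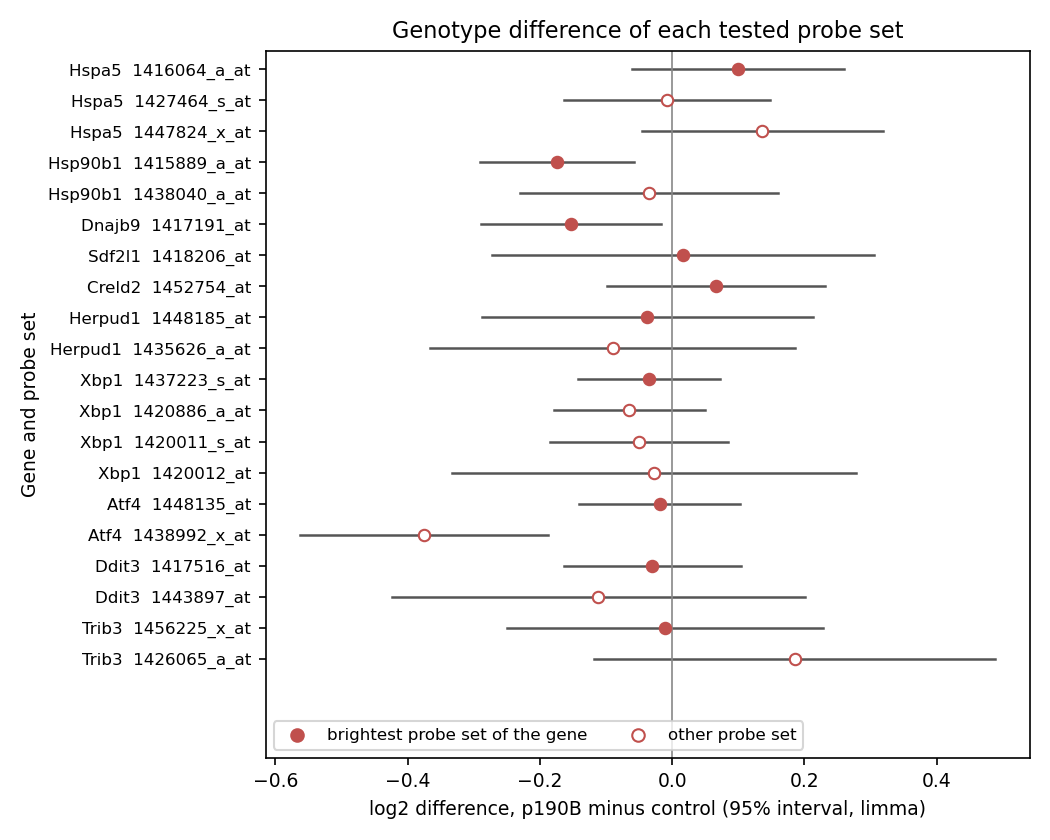
Log2 difference (p190B minus control) with its 95% limma interval for the 20 tested probe sets, by gene, filled for the brightest probe set of each gene (6 arrays per group). The intervals of Hsp90b1 1415889_a_at, Dnajb9 1417191_at and Atf4 1438992_x_at lie below 0, and none of the 20 passed after adjustment over all probe sets.

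Among the ER chaperones, Hspa5, the ER Hsp70 also called BiP that binds unfolded chains and holds the sensors inactive, ran from 31438 through a median of 32885 to 37020 intensity units in p190B and from 26736 through 30798 to 38625 in control (1416064_a_at). The p190B range lay inside the control range, whose ends were control replicates 1 and 2. The log2 difference was 0.10 (95% interval −0.06 to 0.26, limma adjusted p = 0.734). Its other probe sets gave −0.01 (1427464_s_at) and 0.14 (1447824_x_at).

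Hsp90b1, the ER Hsp90 also called GRP94, which folds integrins and Toll-like receptors, ran from 16262 through 18443 to 19171 units in p190B and from 18360 through 20674 to 21629 in control (1415889_a_at). The p190B arrays were the lower ones, and the ranges overlapped only between 18360 and 19171. The log2 difference was −0.17 (95% interval −0.29 to −0.06), with an unadjusted limma p of 0.00611 and an adjusted p of 0.345. The second Hsp90b1 probe set, 1438040_a_at, gave −0.03 (−0.23 to 0.16), and its p190B values were spread more widely, from 8738 on p190B replicate 3 to 13359 on p190B replicate 4.

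Dnajb9, an ER J-domain protein also called ERdj4 that keeps the sensor Ire1 in check and is a target of Xbp1, ran from 12604 through 13656 to 14560 units in p190B and from 13982 through 14762 to 18305 in control. The log2 difference was −0.15 (95% interval −0.29 to −0.02), with an unadjusted limma p of 0.0297 and an adjusted p of 0.476. Control replicate 2 held the top value, and the difference was −0.10 without it.

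Sdf2l1, a partner of ER J-domain proteins, had the widest spread in p190B of the 10 genes, with an SD of 0.30 on the log2 scale (n = 6). It ran from 546 through 667 to 927 units in p190B and from 565 through 698 to 817 in control, with a log2 difference of 0.02 (95% interval −0.27 to 0.30). Creld2, an ER protein with disulfide isomerase activity, ran from 3760 through 4167 to 4535 units in p190B and from 3324 through 3978 to 4481 in control (log2 difference 0.07, −0.10 to 0.23). The groups overlapped between 565 and 817 units for Sdf2l1 and between 3760 and 4481 for Creld2, and the limma adjusted p was 0.985 for Sdf2l1 and 0.850 for Creld2.

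Herpud1, a membrane protein that organises the ubiquitin ligase complex for ER-associated degradation, ran from 2880 through 3604 to 3944 units in p190B and from 2821 through 3582 to 5012 in control (1448185_at). Its ends came from the same genotype, control replicates 1 and 2. The log2 difference was −0.04 (95% interval −0.29 to 0.21, limma adjusted p = 0.957), and 0.06 without control replicate 2. The other Herpud1 probe set, 1435626_a_at, gave −0.09 (−0.37 to 0.19).

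Xbp1 was read by 4 tested probe sets, whose log2 differences ran from −0.06 to −0.03 with limma adjusted p between 0.757 and 0.975. The brightest, 1437223_s_at, ran from 23300 through 26285 to 27098 units in p190B and from 25033 through 25851 to 29078 in control. The lowest array was p190B replicate 3 and the highest control replicate 2. Which part of the messenger each probe set reads was not checked, so spliced and unspliced Xbp1 were not told apart.

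In the Atf4 branch the probe sets of Atf4 itself did not move together. Its brightest, 1448135_at, ran from 16587 through 17499 to 18524 units in p190B and from 16094 through 17697 to 20211 in control, a log2 difference of −0.02 (95% interval −0.14 to 0.10, limma adjusted p = 0.955). Another, 1438992_x_at, ran from 4833 through 5337 to 6536 units in p190B and from 5860 through 7063 to 7959 in control, and here 5 of the 6 p190B arrays lay under every control array. Its log2 difference was −0.38 (−0.56 to −0.19), with an unadjusted limma p of 0.000698 and an adjusted p of 0.164. The suffix x marks probe sets with probes that can match other sequences.

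Ddit3, the transcription factor CHOP that Atf4 induces, ran from 1626 through 1735 to 1883 units in p190B and from 1682 through 1764 to 1880 in control (1417516_at). Among the brightest probe sets of the 10 genes this was the tightest in control, with an SD of 0.07 on the log2 scale (n = 6). The difference was −0.03 (95% interval −0.16 to 0.10, limma adjusted p = 0.932). The other Ddit3 probe set, 1443897_at, gave −0.11 (−0.42 to 0.20) and was spread more widely in control, with an SD of 0.30. Trib3, a pseudokinase induced by Atf4 and Ddit3, ran from 280 through 337 to 404 units in p190B and from 315 through 332 to 416 in control (1456225_x_at). Its log2 difference was −0.01 (−0.25 to 0.23, limma adjusted p = 0.989), and that of 1426065_a_at was 0.19 (−0.12 to 0.49).

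**Figure D2:**
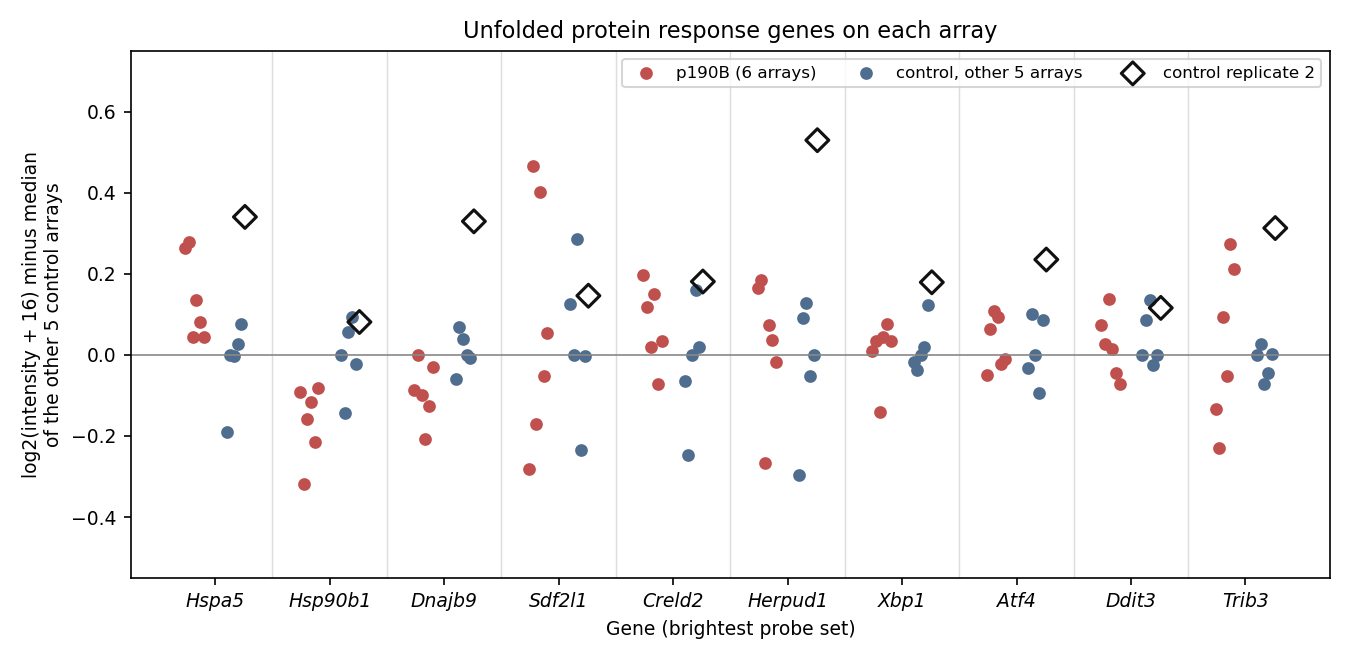
Log2(intensity + 16) of each gene's brightest probe set on each array, minus the median of the control arrays other than replicate 2, with p190B arrays left of control arrays and control replicate 2 as an open diamond. The diamond tops all other arrays for Hspa5, Dnajb9, Herpud1, Xbp1, Atf4 and Trib3, and it stands highest for Herpud1, at 0.53.

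Control replicate 2 carried the highest value of all 12 arrays for 6 of the 10 genes by the brightest probe set, and lay above the other 5 control arrays for 7. Over all tested probe sets this array was the highest of 12 for 8.15% and above the other control arrays for 18.3%, and among those with a mean log2 value of at least 12 for 13.4% and 28.3%. These counts describe the array that drew attention to the genes and nothing is read from them. Herpud1 stood 0.53 above the median of its 5 fellow control arrays on the log2 scale, at 5012 units, where those arrays held 2821 to 3790. Hspa5 stood 0.34 above it (38625 against 26736 to 32155), Dnajb9 0.33 (18305 against 13982 to 15268) and Trib3 0.31 (416 against 315 to 338). Atf4 followed at 0.24, Creld2 and Xbp1 at 0.18, Sdf2l1 at 0.15, Ddit3 at 0.12 and Hsp90b1 at 0.08.

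Additional probe sets of the same genes gave the same array less uniformly. Herpud1 1435626_a_at (0.39), Trib3 1426065_a_at (0.31) and Hspa5 1427464_s_at (0.19) also had control replicate 2 as the highest of 12 arrays. For Ddit3 the probe sets parted, at 0.12 for 1417516_at and −0.39 for 1443897_at. Of all 20 tested probe sets, 11 had control replicate 2 above the other control arrays, and their median departure was 0.16, beside −0.02 over all tested probe sets and 0.04 over those with a mean log2 value of at least 12. With quantile normalisation, which gives all arrays the same distribution of values, Hspa5 stood 0.19 above the other control arrays, Atf4 0.15, Xbp1 0.04 and Hsp90b1 −0.04, while Herpud1 stayed at 0.52.

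By the brightest probe sets, the means of the chosen genes of both branches were high on control replicate 2, the array that led to their choice. This does not extend to the other genes of the branches, which are given below. The mean log2 value of the 6 ER folding and degradation genes was 12.96 there, with 12.62 to 12.78 on the 5 remaining controls, and that of Atf4, Ddit3 and Trib3 was 11.31 against 11.03 to 11.16. Between genotypes the ER mean was 12.71 ± 0.08 in p190B and 12.74 ± 0.12 in control, and the Atf4 branch mean was 11.11 ± 0.06 and 11.13 ± 0.10 in the same order (SD, n = 6 each). The differences were −0.03 and −0.02, both smaller than the spread between arrays, and each was 0.02 without control replicate 2.

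The branches did not stand in a fixed order on the other arrays. On p190B replicate 3 the ER mean was the lowest of all 12 arrays (12.59), while the Atf4 branch mean was the highest of the p190B arrays (11.20). On p190B replicate 2 the ER mean was the highest of the p190B arrays (12.82) and the Atf4 branch mean the lowest of them (11.04). The gap between the branch means ran from 1.39 to 1.78 in p190B, with an SD of 0.14 in p190B and 0.07 in control (n = 6 each), a difference in spread that was not tested. The log2 ratio of the 3′ to the 5′ control probe set of Actb, which rises as RNA is shortened, was highest on p190B replicate 3 at 0.59. It ran from 0.31 to 0.48 on the other p190B arrays, and was 0.35 on control replicate 2 and 0.25 to 0.29 on its 5 fellow controls. For Gapdh the same ratio ran from −0.48 to −0.32 in p190B, highest on replicate 1, and was −0.37 on p190B replicate 3. On control replicate 2 (−0.49) it lay inside the range of the other control arrays (−0.52 to −0.47). Both ratios were mostly higher in p190B than in control, so end ratio and genotype vary together on these arrays. The part of RNA quality in these levels was not tested.

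**Figure D3:**
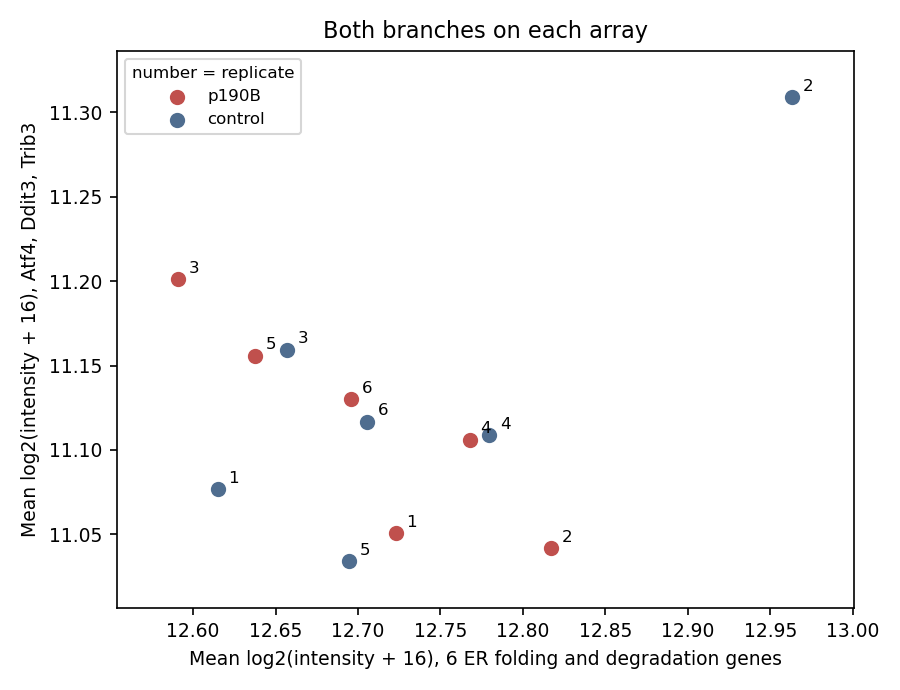
Mean log2(intensity + 16) of the 6 ER folding and degradation genes (horizontal) and of Atf4, Ddit3 and Trib3 (vertical) on each of the 12 arrays, numbered by replicate. Control replicate 2 lies alone at the upper right (12.96 and 11.31), and p190B replicates 3 and 2 lie at opposite ends of the p190B arrays.

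Other genes of the pathway, in lists written with the height of control replicate 2 already known, gave 0 called probe sets between genotypes (limma, each gene by its brightest probe set), beside the 0.037% over all. At an unadjusted p under 0.05 there were 0 of 9 sensor and activator genes, 0 of 27 other ER chaperones, 3 of 26 degradation and translocation genes, 4 of 36 other Atf4 targets, 0 of 4 kinases of eIF2, 2 of 14 heat shock genes (1 of them the mitochondrial Hspe1) and 0 of 9 genes of ER stress death, against 9.32% over all. Their median log2 differences ran from 0.00 in the heat shock list to 0.07 in the sensor list, beside 0.02 over all.

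Named after their values were seen, 3 pathway genes had the smallest p of these lists. Stt3a, a catalytic subunit of oligosaccharyltransferase, ran from 6854 through 7535 to 7915 units in p190B, under every control array, the lowest of which was at 8041 (log2 difference −0.24, limma adjusted p = 0.234). Selenok, a selenoprotein of the ER membrane, ran from 12096 to 14039 units in p190B and from 13530 to 15639 in control (−0.20, adjusted p = 0.226). Psph, the last enzyme of serine synthesis and a target of Atf4, ran from 745 to 1251 units in p190B and from 1141 to 1514 in control (−0.47, adjusted p = 0.251). None of the 3 passed.

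On control replicate 2 the lists of the pathway had medians near or below 0, apart from heat shock genes. The median departure of this array from the other control arrays was −0.15 over the sensors, 0.01 over the other ER chaperones, −0.02 over degradation and translocation genes and −0.10 over the other Atf4 targets, beside the median of 0.21 over the 10 genes chosen. Of the other ER chaperones 5 of 27 lay above all other control arrays, of degradation and translocation genes 4 of 26 and of other Atf4 targets 8 of 36, beside 18.3% of all probe sets. Of the sensors 3 of 9 did so. Of the heat shock genes, which serve folding outside the ER, 11 of 14 lay above all other control arrays, with a median departure of 0.21. Without the mitochondrial chaperonins Hspd1 and Hspe1 it was 10 of 12, and 28.3% of all bright probe sets, those with a mean log2 value of at least 12, did the same. Control replicate 2 was the highest of all 12 arrays for 4 of the 14 heat shock genes, beside 8.15% of all and 13.4% of bright probe sets. The heat shock mean was 13.55 on that array, 13.27 to 13.43 on the other control arrays and 13.29 to 13.59 in p190B.

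For each pathway list, the 3 highest and the 1 lowest departures of this array from the median of the other control arrays are given. These genes were not all highest on control replicate 2. Hsph1 of the heat shock list, for example, was at 9895 units on p190B replicate 1 and 8539 on control replicate 2. Of the stress death genes, 0 of 9 lay above all other control arrays. Chac1, a glutathione-degrading enzyme induced by Atf4, ran from 100 to 284 units in p190B and from 105 to 142 on 5 control arrays, and was at 431 on control replicate 2, a log2 departure of 1.75. The next Atf4 targets were the cystine transporter Slc7a11 (0.48) and Aldh1l2 of mitochondrial folate metabolism (0.43). Slc7a11 was dim, at 82 to 147 units over the 12 arrays, and highest on p190B replicate 4. It passed the brightness filter only through control replicate 2, so its place rests on that array. The lowest Atf4 target was Stc2, a secreted glycoprotein, at −1.27. Stc2 also varied most widely elsewhere, from 1174 to 8730 units in p190B.

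Syvn1, the ligase Hrd1 that Herpud1 serves, departed by 0.41, Edem1 and Edem3, mannosidase-like factors that mark glycoproteins for degradation, by 0.22 and 0.19, and Spcs3, a subunit of signal peptidase, by −0.42. Among chaperones Manf, a secreted ER stress protein, stood at 0.29, the thioredoxin-like Txndc11 at 0.18, the BiP partner Dnajb11 at 0.16 and the isomerase Pdia5 at −0.43. Among sensors and activators Perk itself (Eif2ak3) stood at 0.30, Atf6 at 0.22, Creb3 at 0.06 and Creb3l2 at −0.28. The other kinases of eIF2 lay near 0, with Eif2ak1 at 0.09, Eif2ak2 at 0.03 and Eif2ak4 at −0.02. Among heat shock genes Hsph1, a nucleotide exchange factor of Hsp70, stood at 0.64 and Hspb8 at 0.34, with Hsf2 at 0.32 and Hspa4 lowest at 0.01. Of the stress death genes Tnfrsf10b, a death receptor induced by Ddit3, stood at 0.24, Casp4 at 0.15, Bcl2l11 at 0.11 and Bak1 at −0.40. Hsf2 and Tnfrsf10b were dim, at 93 to 152 and 93 to 207 units over the 12 arrays.

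**Figure D4:**
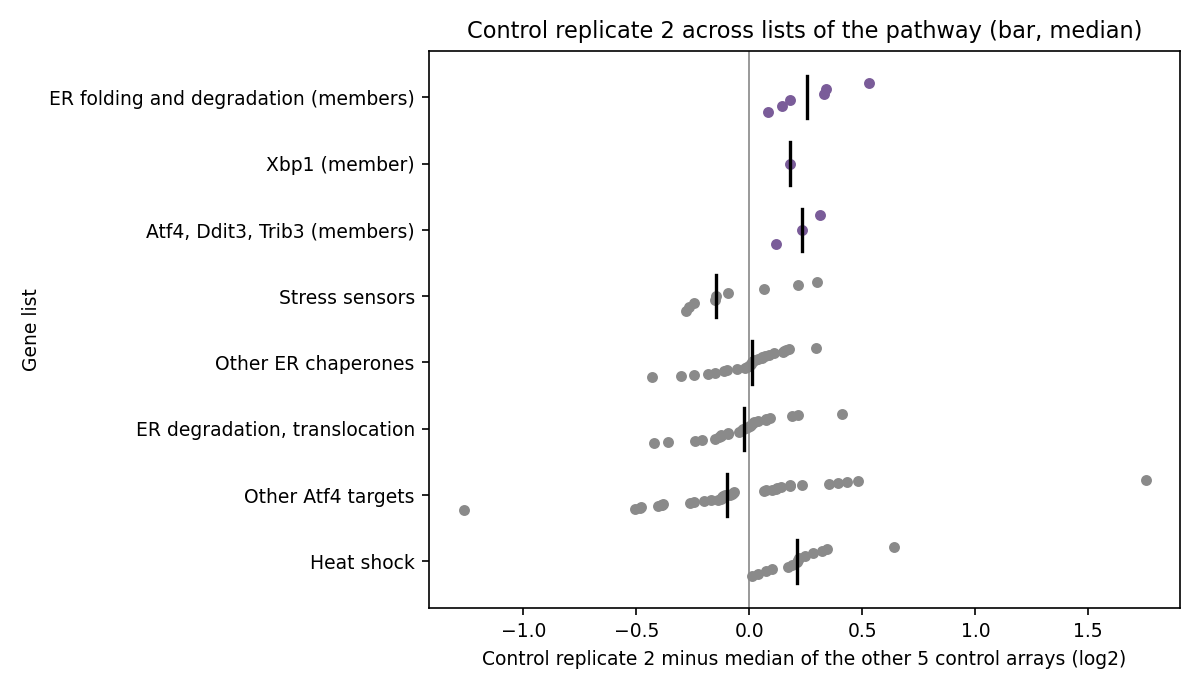
Log2 value of control replicate 2 minus the median of the other 5 control arrays, 1 point per gene (brightest tested probe set), with a bar at the median of each list. The lists of the 10 genes chosen and the heat shock list lie right of 0 as a whole, and Chac1 lies farthest right at 1.75.

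Among the 12770 genes with a tested probe set, the largest departures of control replicate 2 were not in stress genes. The 8 highest were Lce1a1, Lor, Krtdap, Asprv1, Wfdc21, Klk7, Krt10 and Saa1, of which Lce1a1, Lor, Krtdap, Asprv1, Klk7 and Krt10 belong to cornifying epidermis. Lce1a1 and Klk7 passed the brightness filter only through control replicate 2, so their ranks rest on that array. Lor, the cornified envelope protein loricrin, ran from 114 to 302 units in p190B and from 125 to 563 on 5 control arrays, and was at 1911 on control replicate 2. Krt10, a keratin of suprabasal epidermis, ran from 577 to 799 units in p190B and from 618 to 2058 on the same 5 control arrays, and was at 3336 on control replicate 2. A list of 15 epidermal genes was written after these values were seen and includes the epidermal genes named above, so its count is a description. It had control replicate 2 as the highest of 12 arrays for 14 genes, beside 8.15% of all tested probe sets. Of these 14 genes, 6 lay below the brightness filter, and among them Flg, Krt1 and Dsc1 departed by 4.48, 3.59 and 3.39, more than any of the 8 above. The mean log2 value over all 15 genes was 6.73 to 7.00 in p190B, 6.70 to 8.18 on the 5 control arrays and 9.46 on control replicate 2. Over the 7 genes that pass the filter without that array it was 8.18 to 8.49 in p190B, 8.19 to 9.64 on the 5 control arrays and 10.35 on control replicate 2. Among the 10 stress genes Herpud1 ranked 415th of 12770 by this departure.

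The epidermal genes and the ER folding genes did not rank the arrays alike. Control replicate 1 had the second highest epidermal mean (8.18 over the 15 genes) and, among the control arrays, the lowest ER mean (12.62) and the lowest values of Hspa5 and Herpud1. The part of epidermal cells in the levels of control replicate 2 was not tested. In bulk RNA, more cells of a type and more RNA per cell cannot be told apart. Lymphocyte markers were not high on that array. T and NK genes averaged 6.59 to 10.11 on the log2 scale in p190B, 6.96 to 9.91 on the 5 control arrays and 8.09 on control replicate 2, where 0 of 9 exceeded the other control arrays. For B and plasma cell genes the mean was 8.17 to 10.62 in p190B, 8.33 to 10.62 on the 5 control arrays and 8.75 on control replicate 2, where 0 of 10 exceeded them. Over all tested probe sets, 18.3% had control replicate 2 above the other control arrays. Jchain, a plasma cell product, was at 187 units on control replicate 2 and at 371 to 1285 on the other control arrays. The part of lymphocytes in the stress gene levels was not tested.

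Several other marker lists departed on control replicate 2 by about as much as the 10 genes. The median departure was 0.28 over milk protein genes, 0.25 over luminal genes, 0.21 over basal genes and 0.20 over fibroblast genes. It was 0.20 over early response genes, which cell isolation can induce. The count above all other control arrays was 5 of 8 milk protein, 5 of 8 luminal, 4 of 7 basal, 5 of 8 fibroblast and 9 of 12 early response genes, beside 18.3% of all probe sets and 28.3% of those with a mean log2 value of at least 12. Milk protein genes averaged 14.42 there, above 13.58 to 14.24 on the other control arrays, and basal genes 12.47, above 12.03 to 12.35. Early response genes averaged 14.57, above 14.37 to 14.54, and fibroblast genes 14.12, above 13.52 to 14.09, while luminal genes (14.05) lay inside 13.81 to 14.19. Macrophage genes (11.97), endothelial genes (12.21), adipocyte genes (10.33) and skeletal muscle genes (8.80) also lay inside the range of the other control arrays. On p190B arrays the milk protein mean reached 14.56, the basal mean 12.52 and the fibroblast mean 14.16, each above control replicate 2. The early response mean reached 14.52 on p190B arrays, below control replicate 2. The part of all these lists in the stress gene levels was not tested either.

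**Figure D5:**
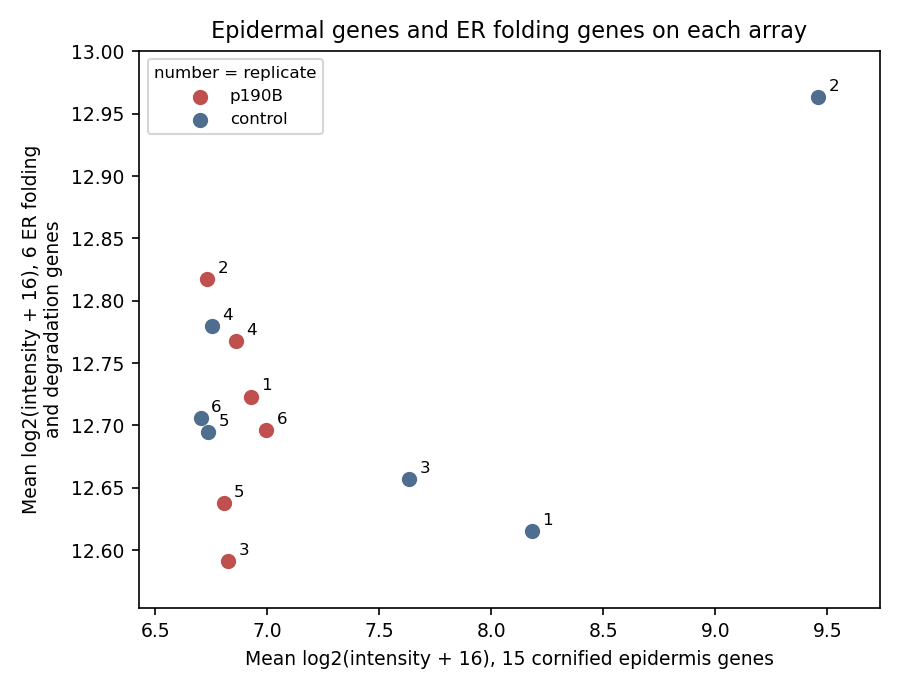
Mean log2(intensity + 16) of 15 cornified epidermis genes (horizontal) and of the 6 ER folding and degradation genes (vertical) on each array, numbered by replicate. Control replicate 2 is highest on both axes (9.46 and 12.96), while control replicate 1 is second on the horizontal axis (8.18) and lowest of the control arrays on the vertical one (12.62).

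Across the 12 arrays the 15 pairs of the 6 ER genes had a Pearson r from −0.23 (Hspa5 with Hsp90b1) to 0.80 (Hspa5 with Herpud1), with a median of 0.22, and 0.09 without control replicate 2. Against the mean of the other 5, r was 0.78 for Herpud1 and 0.60 for Hspa5, and 0.56 and 0.35 without that array. It was 0.04 for Hsp90b1, and −0.35 without that array. Trib3 of the Atf4 branch had r = 0.03 with the mean of all 6, and −0.67 without control replicate 2. Xbp1, likewise outside that mean, had r = 0.69, and 0.45 without control replicate 2. The genes outside the 10 that were most like the mean were Ctps, a CTP synthase (r = 0.95), Lsg1, a GTPase of ribosome assembly (0.93), Arf4, a GTPase of Golgi traffic (0.92), and Dnajb6, a cytosolic J-domain chaperone (0.90). St3gal1, a sialyltransferase, Gnptg, a subunit of the lysosomal sorting phosphotransferase, Atg3, an enzyme of autophagy, and Tbc1d15, a Rab regulator, followed at 0.89, 0.88, 0.88 and 0.87. Without control replicate 2 these 8 values lay between 0.75 (Gnptg) and 0.89 (Arf4).

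The genes most like the mean of Atf4, Ddit3 and Trib3 were Atp6v0d1 of the vacuolar proton pump (r = 0.85), the ubiquitin ligase Rnf41 (0.82) and the transporter-like Mfsd3 (0.79). Mfsd3 had r = 0.37 without control replicate 2. All these values are descriptions of 12 arrays that share 1 scaling, picked as the highest of 12770 genes.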

How the data were processed

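RNA of 12 mammary epithelial cell samples, 6 p190B and 6 control, was hybridised to single-colour arrays. The authors deposited 1 linear intensity per probe set and array, made with MAS5 per the submitters' processing notes, with no version or scaling target given in sources used here. Every array had a trimmed mean (2%) of 1000.0, so all had been scaled to 1 target, which leaves differences in shape between arrays. Depth does not apply, and 6 arrays per group limit the precision.

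Titles gave the groups. Names of probe sets came from the platform annotation and were checked against RefSeq by Entrez ID (0 symbols changed). Probe sets with a mean log2(intensity + 16) at or above the 40th percentile, about 101 units, were tested (27022) with limma 3.58.1 in R 4.3.3 (eBayes with trend, two-sided, Benjamini-Hochberg over all of them, threshold 0.05). The steps were tested on simulated data. The genes and lists were chosen with earlier results of these data known. Named were all probe sets of the 10 genes, list genes past the threshold, the 3 highest and 1 lowest of each pathway list on control replicate 2, the 8 highest of all genes there, and the 8 and 3 most alike. The alternatives were other pseudocounts, filters, scalings and variance settings, array weights, a replicate block, end ratios as covariates and left-out arrays. Figures were drawn with matplotlib 3.10.9.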

Additional observations from a re-analysis of the deposited data

Results flagged for a closer look

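A single array stood far apart in 5 of the 84 sets of 6 values looked at. About 1 in 20 would do so by chance in sets not chosen on their values. The 10 genes were chosen for their height on control replicate 2, so this rate does not apply to that array, and its flags are descriptions. In control, replicate 2 was far above the rest for Dnajb9 (1417191_at, log2 14.16 against 13.77 to 13.90) and for Trib3 (1456225_x_at, 8.75 against 8.37 to 8.47). In p190B, replicate 3 was far below the rest for Herpud1 (1435626_a_at, 11.0 against 11.48 to 11.72) and for Xbp1 (1437223_s_at, 14.51 against 14.66 to 14.73). The mean of the adipocyte genes on p190B replicate 3 was far above the other p190B arrays, at 10.78 against 10.15 to 10.33.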

How the results depend on the processing

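Under all 25 alternatives 0 of the tested probe sets of the 10 genes passed limma. Over all probe sets the count of 10 became 5 without a filter, 17 with a filter at the 60th percentile, 31 with quantile normalisation, 4 with equal medians, 3 without a trend, 19 with array weights, 1 after adjusting for the Actb end ratio and 0 after adjusting for that of Gapdh. It was 6 without control replicates 1 and 2, a setting chosen after seeing the data, and 4 to 9 without 1 array, at 6 or fewer without control replicate 1, 3, 4, 5 or 6 or p190B replicate 2, 4 or 5. With the replicate number as a block it was 0, but the numbers do not pair the arrays: same-numbered arrays correlated between −0.29 and 0.41 in their deviations, and 1 of 6 p190B arrays correlated best with its own number. Small differences changed sign, none past the threshold. With equal medians Sdf2l1 gave −0.0146. With the Gapdh ratio Creld2 gave −0.0082, Xbp1 0.0474 and Trib3 0.21, and with the Actb ratio Xbp1 gave 0.0121. Trib3 gave 0.0474 with array weights and 0.0488 without control replicates 1 and 2, where Atf4 gave 0.0070. When single arrays were left out, Sdf2l1 ran from −0.0633 to 0.0861, Herpud1 from −0.11 to 0.0551, Atf4 from −0.0475 to 0.0181 and Trib3 from −0.0597 to 0.0445. The departure of the Atf4 branch on control replicate 2 was 0.20 by the brightest probe sets and 0.11 by the mean of all tested ones, and that of the ER genes stayed between 0.22 and 0.29. The causes were not tested. Dim probe sets such as those of Trib3 have the least signal over background.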
